A study of Capra hircus with 29 samples.

Results

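The oocytes compared came from large follicles (HLO) and medium follicles (HMO) of Ji'ning grey goats in the high fertility group, with 5 samples of each stage, so 10 of the 29 oocyte samples analysed here. The members were the genes listed above 0.5 FPKM (fragment counts scaled to the length of the transcript and to the size of the library) in at least 4 of these 10 samples, which were 8320 of the 21343 genes in the table. The labels name no treatment or transgene. They were of a breed known for large litters and were placed in the group by litter size. Per the study's methods, the oocytes of a stage were pooled over goats and then divided into samples of a few oocytes, so the 5 samples of a stage were parts of a single pool, and p-values measured the spread between those parts, which may be partly technical. The comparison asked which transcripts differed between oocytes of the last stage of follicle growth and those of the stage before it.

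An oocyte grows inside its follicle while it builds the zona pellucida, the coat that sperm bind, and stores maternal mRNA and ribosomes for the embryo. Transcription falls towards the end of growth, and later changes in mRNA content then reflect largely the storage and decay of transcripts already made. Growth factors of the oocyte such as GDF9 and BMP15 act on the surrounding granulosa cells, which feed the oocyte through gap junctions and hold it in meiotic arrest until ovulation.

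The inclusion limit was met by 5765 genes in all 10 samples and by 467 genes in exactly 4 of them, and 418 further genes were above 0.5 FPKM in exactly 3 samples and were left out. The lowest fourth-highest value among the genes kept was 0.50011 FPKM and the highest among the genes left out was 0.49898 FPKM. Among the genes kept, 73 had no HLO sample above 0.5 FPKM and 11 had no HMO sample above it. Summed FPKM per sample ranged from 376899 to 490048. The number of reads behind each value is not part of the table, and the study's mapping numbers were not used here, so no counting interval could be given.

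Oocyte markers were high in both stages. ZP3, a zona pellucida protein, ranged from 508 to 3179 FPKM in HLO and from 468 to 1543 FPKM in HMO, and GDF9 from 95.8 to 494 and from 89.8 to 556 FPKM. Of 18 oocyte marker genes 14 were above 0.5 FPKM in all 10 samples. NOBOX, a transcription factor of early oocytes, stayed at 0.129 to 0.688 FPKM and NLRP5, a subcortical maternal complex protein, at 0.113 to 0.547 FPKM. Of 23 granulosa and cumulus cell marker genes 13 were never above 0.5 FPKM, and the defining FSHR, LHCGR, INHA and AMH had at most 0.149 FPKM in any of the 10 samples. The summed level of that list was 29.3 to 52.4 FPKM in HLO and 21.6 to 34.4 FPKM in HMO. The theca and stroma list summed to 23.1 to 58.9 FPKM in HLO and 15.8 to 57.0 FPKM in HMO, the endothelium and red cell list to 1.97 to 3.35 and 1.41 to 3.47 FPKM. The leukocyte list summed to 22.3 to 192 and 36.4 to 142 FPKM, most of it CD52, while PTPRC, the pan-leukocyte CD45, had at most 0.00816 FPKM. In pooled oocytes, fewer cells of a type and less RNA per cell cannot be told apart.

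HMO replicate 2 stood apart from the other HMO samples before any gene was tested. The first principal component of log2(FPKM + 1), with 55.5% of the variance, did not order the samples by stage. Replicates 1 and 5 scored from 47.3 to 54.4 in both stages and replicates 2, 3 and 4 from -53.6 to -16.1 (HLO -5.89 ± 52.6 and HMO 5.89 ± 41.4, SD, n = 5 each; exact permutation p 0.587). In 3167 genes replicates 1 and 5 were both above replicates 2, 3 and 4 in HLO and in HMO, and in 299 genes both were below them. The second component, with 17.4% of the variance, placed HMO 1, 3, 4 and 5 at 18.0 to 33.9, and the 5 HLO samples at -30.4 to -8.29. HMO replicate 2 scored -20.7 on it, inside the range of HLO. The number of expressed genes did not differ beyond the spread of the samples, with 7694 ± 536 in HLO and 7837 ± 471 in HMO (SD, n = 5 each; exact permutation p 0.556). Replicates 1 and 5 had 8120 to 8415 expressed genes and the others 7251 to 7532.

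**Figure D1:**
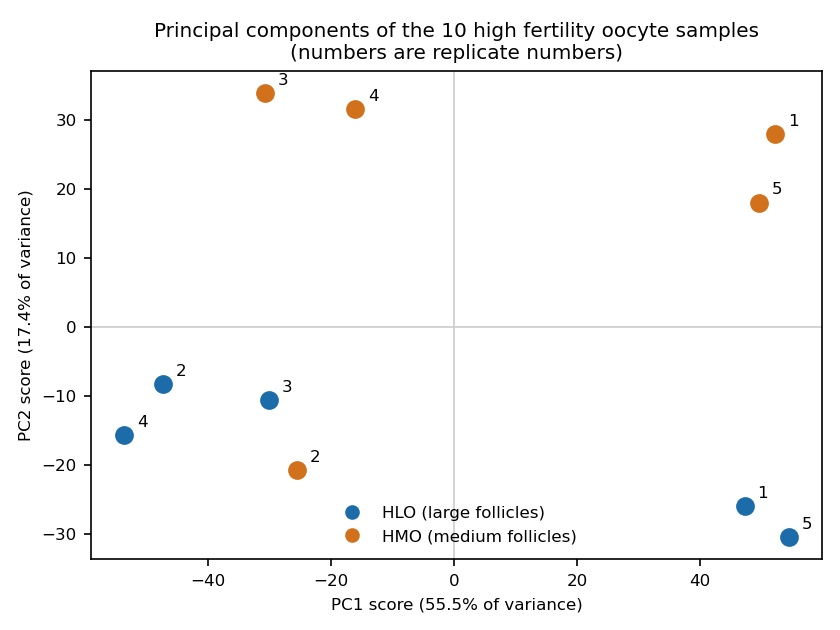
Scores of the 10 samples on the first principal component (x axis, 55.5% of the variance) and the second (y axis, 17.4%) of log2(FPKM + 1) over 8320 genes, in score units, with replicate numbers beside the points. Replicates 1 and 5 lie right of replicates 2, 3 and 4 in both stages, and HMO replicate 2 lies among the HLO samples on the y axis at -20.7.

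More genes were higher in HMO than in HLO. Past an unadjusted p of 0.05 in limma and a log2 fold change of 1, 187 genes were higher in HMO (2.25% of the 8320 tested) and 19 higher in HLO (0.228%). No gene passed an adjusted p of 0.05 (smallest 0.221, limma with Benjamini-Hochberg adjustment), while 530 genes had an unadjusted p under 0.05, of which 412 were higher in HMO. An exact Wilcoxon test gave 343 genes with an unadjusted p under 0.05 and 0 after adjustment, since 5 against 5 samples cannot go below 0.00794. All 5 samples of HMO lay above all 5 of HLO in 54 genes (0.649%), and all HLO above all HMO in 30 genes (0.361%). Deviations of samples with the same replicate number correlated, although only 3 of the 5 samples of each stage matched their own number best, and with that number as a block 137 genes passed the adjusted threshold in limma, 129 higher in HMO (1.55%) and 8 higher in HLO (0.0962%). That count was 401 when HLO 2 or HMO 2 was left out with the block kept, and 0 or 1 when any of the other 8 samples was left out. In that fit, leaving out either sample of a number takes the whole pair out of the comparison, so HLO 2 is not singled out. Without HMO replicate 2 and with no block, 177 genes passed the adjusted threshold, 170 higher in HMO and 7 higher in HLO. Of these, 96 were also among the 137 with the block, which is 70.1% of the 137 and 54.2% of the 177. Leaving out that sample also raised the counts past the p and fold limits to 304 higher in HMO and 36 higher in HLO, and the counts without overlap to 365 and 158.

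The 187 genes higher in HMO shared a sample pattern. In 174 of them (93.0%, against 27.96% of all genes tested) HMO replicate 2 was the lowest HMO sample, in 166 it was at or under the highest HLO sample, and in 152 the other 4 HMO samples were all above all 5 HLO samples. The limits chose genes with a high HMO mean, so these shares describe the genes and were not tested. Their log2 fold changes (HLO minus HMO) had a median of -1.43 and reached -5.61. Their mean level over the 10 samples had a median of 6.29 FPKM, against 3.45 FPKM for all genes tested. In 34 of them no HLO sample was above 0.5 FPKM, and 6 were listed at 0 in all 5 HLO samples. With the block 106 of the 187 passed the adjusted threshold, and 185 were past the p and fold limits without HMO replicate 2. Of the 187 genes, 33 met the inclusion limit in exactly 4 samples. A gene that met it through a single stage had to differ, so its values are given as a description. Among the 8236 genes above 0.5 FPKM in at least 1 sample of each stage, 153 were higher in HMO (1.86%) and 19 higher in HLO (0.231%).

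Among the steepest differences were genes at or near 0 in HLO and well expressed in most HMO samples. LOC108635646 (ENSCHIG00000003262), which the table describes as subunit 9 of the cytochrome b-c1 complex, the respiratory complex III, had 0, 0, 0, 0 and 0 FPKM in HLO 1 to 5 and 82.6, 0, 204, 155 and 104 FPKM in HMO 1 to 5. It was listed at 0 in every HLO sample and in HMO replicate 2, and at 82.6 FPKM or more in the other HMO samples, so no fold change is given. HSD17B2, an enzyme that turns estradiol and testosterone into less active steroids, had 0.0371, 0.0261, 0.0360, 0.0394 and 0.113 FPKM in HLO 1 to 5 and 25.3, 0.0443, 12.7, 17.7 and 27.4 FPKM in HMO 1 to 5. The 4 high HMO samples were at 12.7 FPKM or more and the other 6 samples at 0.113 FPKM or less. The difference of the means was -3.45 on the log2 scale (SE 0.75). LOC108635646 and HSD17B2 met the inclusion limit through 4 HMO samples alone, as did MYBPC2, PAK3, CCL19, KAT2B, SLC2A3 and the RPS15A copy described later, and no p is given for them. LOC108635646 and others described from here to the ribosomal proteins with a LOC or shared symbol were chosen for their size after the values were seen.

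Some named genes are better known from gut, liver or kidney, a grouping made after the values were seen and not tested. DPP4, a peptidase on the cell surface that inactivates incretin hormones, had 12.2, 9.33, 11.3, 4.35 and 6.52 FPKM in HLO 1 to 5 and 65.9, 11.003, 135, 77.8 and 43.9 FPKM in HMO 1 to 5. HMO replicate 2 fell inside the HLO range of 4.35 to 12.2 FPKM and the other HMO samples began at 43.9 FPKM. The log2 fold change was -2.50 (SE 0.57, limma p 0.000856). GUCA2B, the precursor of the gut peptide uroguanylin, had 1.797, 3.24, 1.91, 0.690 and 1.72 FPKM in HLO 1 to 5 and 23.1, 2.25, 17.3, 25.97 and 13.1 FPKM in HMO 1 to 5, a log2 fold change of -2.35 (limma p 0.000746). Of 12 marker genes of intestinal and liver epithelium 8 were never above 0.5 FPKM, and VIL1, FABP2, CDX2, SI and APOA4 had at most 0.0343 FPKM in any of the 10 samples. The list summed to 0.953 to 5.26 FPKM in HLO and 1.96 to 3.25 FPKM in HMO. Its 2 tested genes had a median log2 fold change of -0.51, and 0 passed both limits. ALB, serum albumin, was at 0.470 ± 0.434 FPKM in HLO and 0.918 ± 0.357 in HMO (SD, n = 5; limma p 0.0764). FABP1, the liver fatty acid binding protein, was low with 0, 0.661, 0.655, 0.512 and 0 FPKM in HLO 1 to 5 and 1.097, 0.952, 0.705, 0.931 and 1.44 FPKM in HMO 1 to 5. Every HMO sample was above every HLO sample for it (log2 fold change -0.60, limma p 0.00889). TTR of the same list, which was not among the tested genes, went the other way. It had a mean of 0.785 FPKM (0 to 2.95) in HLO and 0.0827 FPKM (0 to 0.210) in HMO. The part of gut, liver or kidney cells in these differences was not tested.

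**Figure D2:**
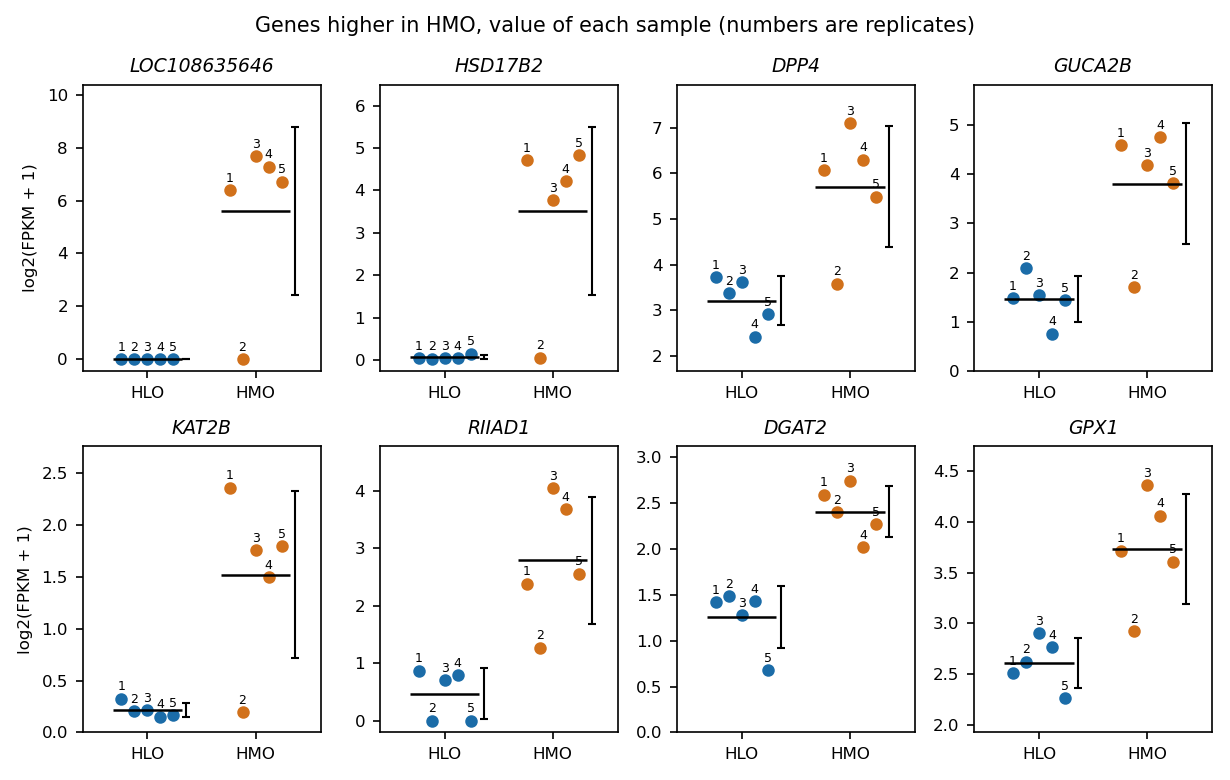
log2(FPKM + 1) of 8 genes higher in HMO (y axis) in HLO and HMO (x axis), each point a sample labelled with its replicate number, the horizontal line the group mean and the bar beside it 1 SD (n = 5). HMO replicate 2 lies at the HLO level for LOC108635646, HSD17B2, DPP4, GUCA2B and KAT2B, while DGAT2, RIIAD1 and GPX1 keep all 5 HMO samples above HLO.

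Ribosomal proteins, the largest list with 138 tested genes, had 16 genes higher in HMO past both limits (11.6%, against 2.25% of all genes tested) and 0 higher in HLO, and a median log2 fold change of -0.22, against -0.03 for all genes tested. Many ribosomal protein symbols are carried by several genes of the table, and reads of near-identical copies cannot be assigned with certainty. The copy with the highest mean of each symbol was among 78 tested genes of which 0 passed both limits, with a median of -0.15, and the 16 were all among the 60 other copies. A copy of RPS6 (ENSCHIG00000008209), a protein of the small subunit, had 5.04, 3.72, 3.54, 3.003 and 4.95 FPKM in HLO 1 to 5 and 87.9, 3.62, 62.9, 72.5 and 87.8 FPKM in HMO 1 to 5. The 4 HMO samples other than replicate 2 were at 62.9 FPKM or more and the remaining 6 samples at 5.04 FPKM or less. The highest RPS6 copy (ENSCHIG00000010409) had 294 ± 84.6 FPKM in HLO and 269 ± 34.0 FPKM in HMO (SD, n = 5), a log2 fold change of 0.09 (SE 0.26, limma p 0.733). The same held for RPS23, where ENSCHIG00000008613 had 3.36, 5.81, 3.77, 4.09 and 2.201 FPKM in HLO 1 to 5 and 43.7, 5.52, 80.1, 51.1 and 46.5 FPKM in HMO 1 to 5 and the highest copy (ENSCHIG00000014944) 564 ± 171 FPKM in HLO and 539 ± 116 in HMO (limma p 0.906). A copy of RPS15A (ENSCHIG00000011047) was listed at 0 in all HLO samples and in HMO 2, and had 24.3, 47.2, 30.0 and 23.0 FPKM in HMO 1, 3, 4 and 5. The highest RPS15A copy (ENSCHIG00000022493) had 677 ± 308 FPKM in HLO and 536 ± 154 in HMO (limma p 0.532). For RPL7A, of the large subunit, the highest copy (ENSCHIG00000003945) was itself higher in HMO at 270.1 ± 94.5 FPKM against 159 ± 48.8 in HLO, a log2 fold change of -0.75 (limma p 0.0319), under the fold limit. RPS10 (ENSCHIG00000008222, 1 of 6 genes with that symbol) kept all 5 HMO samples above HLO, with 1.45, 1.53, 1.39, 2.14 and 1.46 FPKM in HLO 1 to 5 and 27.98, 2.85, 25.6, 21.7 and 13.02 FPKM in HMO 1 to 5. The other direction was seen in 1 copy of RPL9 (ENSCHIG00000011416), a protein of the large subunit, at 45.8 to 88.5 FPKM in HLO and 20.8 to 40.5 FPKM in HMO. Its log2 fold change was 0.99 (limma p 0.00715), just under the fold limit. The highest copies were picked after the values were seen, by their mean over all 10 samples. Symbols carried by several genes made up 62 of the 187 genes higher in HMO (33.2%) and 15.1% of all genes tested. Leaving out all genes with a shared symbol gave 124 genes higher in HMO and 15 higher in HLO.

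Genes of mitochondrial respiration and translation had the same sample pattern in a few members. Of 85 tested nuclear genes for subunits of respiratory complexes or ATP synthase, 5 passed both limits in the direction of HMO (5.88%, against 2.25% of all genes tested) and 0 in that of HLO, with a list median of -0.11. They were ATP5G2, which encodes the ring subunit of ATP synthase, NDUFA4, NDUFB5, NDUFB6 and ATP5E, the last 3 named after their values were seen. Only 2 of them were among the 75 tested genes that were the highest copy of their symbol. The other 3 were among the 10 other copies, so the share of the list rests largely on such copies. ATP5G2 (ENSCHIG00000010267, 1 of 3 genes with that symbol) had 1.28, 0.763, 0.616, 0.382 and 1.898 FPKM in HLO 1 to 5 and 49.8, 0.482, 20.8, 22.4 and 42.9 FPKM in HMO 1 to 5. NDUFA4 (ENSCHIG00000018808, 1 of 5) had 3.05, 5.72, 7.57, 6.37 and 1.98 FPKM in HLO 1 to 5 and 31.1, 6.64, 42.6, 39.001 and 10.99 FPKM in HMO 1 to 5. In both genes HMO replicate 2 lay inside the range of HLO and the other HMO samples above it. Of 70 tested mitochondrial ribosomal proteins 3 were higher in HMO (4.29%) and 0 in HLO, with a median of -0.20. MRPL18 (ENSCHIG00000025460, 1 of 2 genes) had 2.13, 3.63, 5.303, 1.37 and 6.41 FPKM in HLO 1 to 5 and 229, 5.11, 125, 201 and 84.7 FPKM in HMO 1 to 5, a log2 fold change of -4.17 (SE 0.85, limma p 0.000376). MRPS33 (ENSCHIG00000008210, 1 of 2) had 2.75 ± 1.19 FPKM in HLO and 19.1 ± 10.6 FPKM in HMO (SD, n = 5; limma p 0.00312). The third was MRPL30. Of these 3 genes, 2 were among the 65 tested highest copies and 1 among the 5 other copies. Proteasome subunits (48 tested, median -0.11) and translation initiation factors (39 tested, median -0.23) had 0 genes past both limits in either direction. With lists of this length, 0 is near the shares of all genes tested, 2.25% higher in HMO and 0.228% higher in HLO.

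Several named genes were higher in HMO in every sample. DGAT2, the enzyme of the last step of triglyceride synthesis, had 1.67, 1.81, 1.43, 1.69 and 0.599 FPKM in HLO 1 to 5 and 5.03, 4.28, 5.71, 3.06 and 3.84 FPKM in HMO 1 to 5. The lowest HMO sample was above the highest HLO sample, and HMO replicate 2 was within the range of the other HMO samples. The log2 fold change was -1.15 (SE 0.23, limma p 0.00038, adjusted p 0.221). GPX1, a glutathione peroxidase, had 4.69, 5.15, 6.47, 5.81 and 3.79 FPKM in HLO 1 to 5 and 12.1, 6.59, 19.6, 15.7 and 11.2 FPKM in HMO 1 to 5, a log2 fold change of -1.12 (SE 0.30, limma p 0.00277). RHEB, the small GTPase that switches on mTORC1, had 8.08, 6.66, 6.33, 7.71 and 6.32 FPKM in HLO 1 to 5 and 22.8, 9.18, 11.4, 16.4 and 25.1 FPKM in HMO 1 to 5, a log2 fold change of -1.08 (limma p 0.00416). For GPX1 and RHEB the groups did not overlap, but HMO 2 was the lowest HMO sample. RIIAD1, a protein with a docking domain of protein kinase A regulatory subunits, had 0.833, 0, 0.628, 0.728 and 0 FPKM in HLO 1 to 5 and 4.22, 1.42, 15.5, 11.8 and 4.89 FPKM in HMO 1 to 5. PAX6, a homeobox transcription factor best known from the eye, was low in both stages, with 0.0708 to 1.77 FPKM in HLO and 2.41 to 4.12 FPKM in HMO. LCMT2, a tRNA-modifying methyltransferase, had 0.0433 to 0.780 FPKM in HLO and 0.804 to 3.34 FPKM in HMO, and MYBPC2, a myosin binding protein of fast muscle, 0 to 0.0332 and 0.121 to 3.13 FPKM. The other named genes without overlap were CALML4, a calmodulin-like protein, TRIM6, a ubiquitin ligase, and CCDC173, with log2 fold changes of -1.29, -1.06 and -0.92. MYBPC2 met the inclusion limit through 4 HMO samples alone and is left aside here. All the other genes of this paragraph but RHEB and CCDC173 were among the 129 that passed the adjusted threshold with the replicate block.

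The lists to which these genes belong had few other members past both limits, and with lists this short the shares, against 2.25% of all genes tested, rest on 1 to 3 genes. Lipid and steroid handling (23 tested, median -0.15) had 2 higher in HMO (8.70%), HSD17B2 and DGAT2. Antioxidant enzymes (31 tested, median -0.21) also had 2 (6.45%), GPX1 and PRDX5, a peroxiredoxin at 40.6 ± 18.97 FPKM in HLO and 80.99 ± 25.4 in HMO (SD, n = 5; limma p 0.0204). PI3K, FOXO3 and mTOR genes (23 tested, median -0.07) had 3 (13.04%), RHEB and 2 copies of RPS6. Of the glycolysis, pyruvate and lactate list (29 tested, median 0.02), SLC2A3, a glucose transporter, was at 0.127 ± 0.0843 FPKM in HLO and 1.17 ± 0.819 in HMO, with HMO 2 at the level of HLO. Heat shock proteins and chaperonins (60 tested, median -0.09) had 1 (1.67%), HSPB3, a small heat shock protein listed at 0 in 4 of 5 HLO samples and in HMO 2, and at 1.09 to 4.13 FPKM in the other HMO samples. A copy of HSPA8 (ENSCHIG00000009645, 1 of 4 genes), the constitutive HSP70, had a log2 fold change of -0.98 (limma p 0.00717). None of these lists had a gene higher in HLO past both limits.

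As for HSD17B2, HMO 2 was at the level of HLO for KAT2B, PAK3, CCL19 and BLOC1S2. KAT2B, a histone acetyltransferase, had 0.253, 0.154, 0.158, 0.111 and 0.123 FPKM in HLO 1 to 5 and 4.13, 0.144, 2.39, 1.83 and 2.47 FPKM in HMO 1 to 5. It was the single gene past both limits among 35 tested DNA methylation and chromatin enzymes (list median 0.07). That share of 2.86% is near the 2.25% of all genes tested, and KAT2B met the inclusion limit through 4 HMO samples alone. PAK3, a kinase activated by Rac and Cdc42, was at 0.0738 FPKM or less in HLO and in HMO 2 and at 1.47 to 2.62 FPKM in the other HMO samples. CCL19, a chemokine, was at 0.211 FPKM or less in HLO, listed at 0 in HMO 2 and at 1.83 to 2.95 FPKM in the others. BLOC1S2, a subunit of a complex in lysosome biogenesis, had 6.71, 5.04, 5.23, 2.17 and 5.34 FPKM in HLO 1 to 5 and 65.2, 3.91, 25.7, 56.2 and 42.8 FPKM in HMO 1 to 5. OR5J2, an olfactory receptor gene, had 0.164, 0.109, 1.53, 0 and 0 FPKM in HLO 1 to 5 and 68.6, 43.3, 29.7, 5.72 and 0.161 FPKM in HMO 1 to 5. Here HMO 5 was inside the HLO range and HMO 2 was above it.

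Among the 19 genes higher in HLO was YEATS4, a reader of acetylated histones, with 23.02, 12.3, 14.7, 21.5 and 10.6 FPKM in HLO 1 to 5 and 4.73, 7.55, 3.71, 6.14 and 6.59 FPKM in HMO 1 to 5. Every HLO sample was above every HMO sample. The log2 fold change was 1.34 (SE 0.30, limma p 0.000684, adjusted p 0.221), and it was 1 of the 8 genes higher in HLO that passed the adjusted threshold with the block. PNPLA4, a lipid hydrolase, had 7.48, 3.01, 6.36, 4.91 and 6.31 FPKM in HLO 1 to 5 and 2.08, 2.73, 0.957, 2.74 and 2.11 FPKM in HMO 1 to 5, and OCM2, a calcium-binding oncomodulin, 15.2, 12.5, 23.01, 13.2 and 21.9 FPKM in HLO 1 to 5 and 9.903, 2.63, 10.7, 7.58 and 10.9 FPKM in HMO 1 to 5. Neither gene overlapped between the stages, and their log2 fold changes were 1.07 and 1.04 (limma p 0.00224 and 0.0154). HMO 2 was the lowest sample for OCM2, and without it the log2 fold change was 0.72, under the fold limit. Of the 19 genes higher in HLO, 16 were also past both limits without HMO 2.

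STAR, which carries cholesterol into mitochondria for steroid synthesis, did not overlap between the stages either, with 30.01, 18.02, 17.6, 26.5 and 25.4 FPKM in HLO 1 to 5 and 8.54, 15.6, 9.86, 13.3 and 14.2 FPKM in HMO 1 to 5. Its log2 fold change of 0.88 (SE 0.28, limma p 0.00773) was under the fold limit. STAR is also a granulosa cell marker. Of that list, FSHR, LHCGR, INHA and AMH were at or near 0, as given above, while SERPINE2 was at 5.404 to 16.5 FPKM in HLO and 4.04 to 11.3 FPKM in HMO and VCAN at 1.91 to 5.25 FPKM in HLO and 2.03 to 4.71 FPKM in HMO. Of its 5 tested genes 0 passed both limits. Its summed level ran higher in HLO, but STAR itself, with means of 23.5 FPKM in HLO and 12.3 in HMO, is part of that sum. Of the other tested genes SERPINE2 (9.80 against 7.81 FPKM) and HAS2 (1.22 against 1.17) were also higher in HLO by their means. GJA1 (0.570 in HLO against 1.03 in HMO) and VCAN (3.26 against 3.49) were higher in HMO. Most markers of the list that were not tested also had the higher mean in HLO, at low levels. Examples were INHBA (0.643 in HLO against 0.245 FPKM in HMO), FST (0.308 against 0.134) and CYP11A1 (0.260 against 0.174). LHCGR, PTX3 and MGARP had the higher mean in HMO, and AMH, AMHR2 and HSD17B1 were listed at 0. The part of granulosa cells in the difference of STAR was not tested. TIMD4, a receptor for phosphatidylserine on dying cells, had 83.8, 68.1, 82.9, 73.8 and 102 FPKM in HLO 1 to 5 and 43.3, 47.3, 53.5, 60.05 and 39.9 FPKM in HMO 1 to 5, a log2 fold change of 0.74 (limma p 0.0109), again with no overlap. The other named genes higher in HLO without overlap were OCEL1 (0.83), the p38 target kinase MAPKAPK3 (0.75), the calcineurin inhibitor RCAN1 (0.68), the mitochondrial carbonyl reductase CBR4 (0.62) and the NADPH oxidase NOX4 (0.55), all log2 fold changes. RCAN1 and NOX4 met the inclusion limit through 4 HLO samples alone.

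Where HLO and HMO overlapped, HMO replicate 2 was often the high HMO sample. In 11 of the 19 genes higher in HLO it was above the other 4 HMO samples, against 20.2% of all genes tested. TESC, a calcium-binding regulator of the sodium-proton exchanger, had 7.77, 11.04, 10.1, 11.1 and 7.23 FPKM in HLO 1 to 5 and 3.15, 12.6, 3.69, 1.42 and 0.938 FPKM in HMO 1 to 5, and CSTA, an inhibitor of cathepsins, 5.71, 6.04, 7.15, 4.73 and 4.68 FPKM in HLO 1 to 5 and 0, 9.44, 1.56, 1.39 and 1.14 FPKM in HMO 1 to 5. In both genes HMO 2 was the highest of all 10 samples and the other HMO samples were below every HLO sample. UBE4A (ENSCHIG00000016514, 1 of 2 genes with that symbol), a ubiquitin ligase and the gene with the largest log2 fold change in this direction, chosen after its values were seen, had 7.90 to 48.2 FPKM in HLO. In HMO it was listed at 0 in 4 samples and had 55.0 FPKM in replicate 2. EGFL6, a secreted protein with EGF repeats, had 46.8, 26.7, 37.4, 24.98 and 64.9 FPKM in HLO 1 to 5 and 11.9, 36.3, 10.4, 17.8 and 24.1 FPKM in HMO 1 to 5. ACSM4, an acyl-CoA synthetase, differed widely between replicate numbers, with 36.9, 0.472, 4.995, 5.94 and 23.6 FPKM in HLO 1 to 5 and 3.54, 0.380, 1.42, 0.476 and 2.34 FPKM in HMO 1 to 5. In each of the 5 numbers HLO was above HMO for ACSM4, and it passed the adjusted threshold with the block, as did AHSP, the chaperone of free alpha globin (log2 fold change 1.17), and BEX2 (0.93). NEFL, a neurofilament protein, and LYPD6B had log2 fold changes of 1.17 and 1.02.

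**Figure D3:**
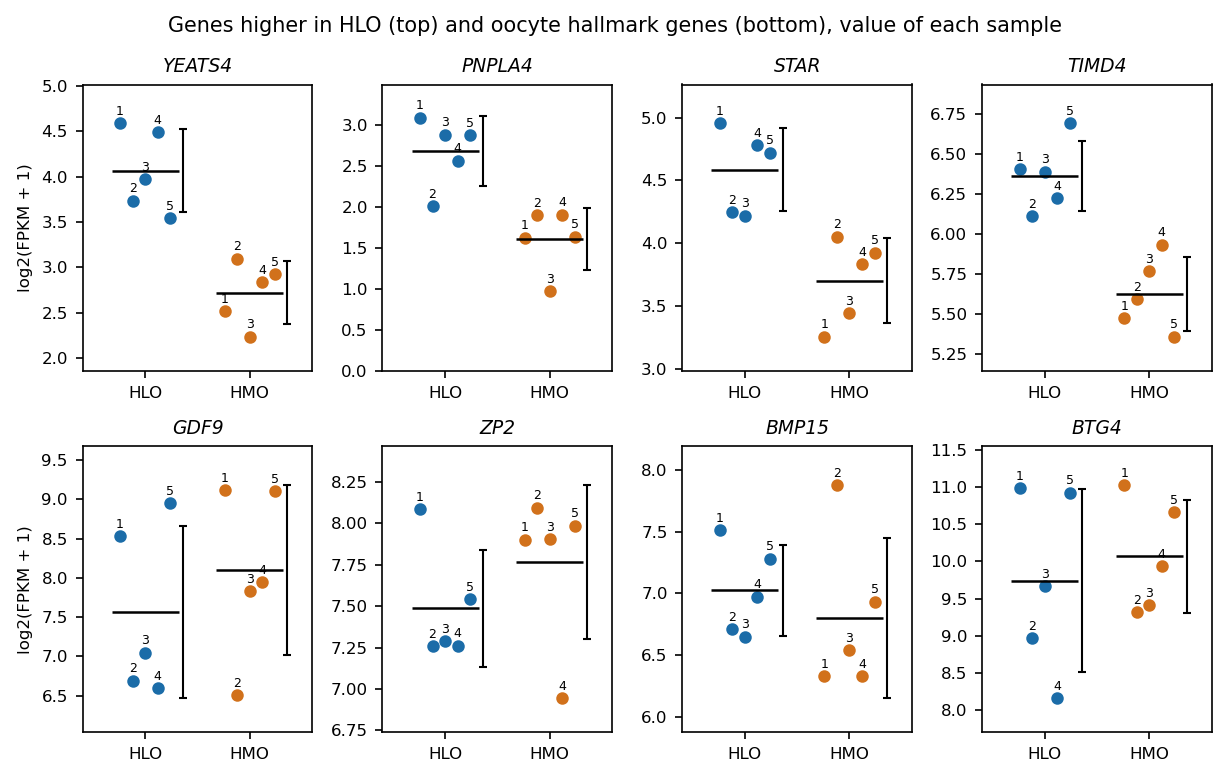
log2(FPKM + 1) of 4 genes higher in HLO (top row) and of 4 oocyte hallmark genes (bottom row) on the y axis, in HLO and HMO on the x axis, each point a sample labelled with its replicate number, the line the mean and the bar 1 SD (n = 5). YEATS4, PNPLA4, STAR and TIMD4 do not overlap between stages, whereas GDF9 and BTG4 follow the replicate number, with 1 and 5 high in both stages.

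The genes by which an oocyte is known had 0 members past both limits in either direction in every list of oocyte function but the chromatin enzymes. Of all genes tested only 2.25% were higher in HMO and 0.228% higher in HLO. With lists this short, 0 is near those shares and sets these genes apart from no others. GDF9, the growth factor that granulosa cells need, had 368, 102, 131, 95.8 and 494 FPKM in HLO 1 to 5 and 556, 89.8, 226, 246 and 551 FPKM in HMO 1 to 5. Replicates 1 and 5 were the highest in each stage, and the log2 fold change was -0.54 (95% interval -1.85 to 0.77, limma p 0.386). BMP15, its partner, had 133 ± 35.1 FPKM in HLO and 121 ± 65.7 in HMO (SD, n = 5), with an interval of -0.53 to 0.98 on the log2 scale. The zona proteins ZP2, ZP3 and ZP4 had intervals of -0.92 to 0.36, -0.97 to 1.32 and -1.24 to 1.27, which reach past the fold limit for ZP3 and ZP4. BTG4, which brings the CCR4-NOT deadenylase to maternal mRNA, was at 1112 ± 817 FPKM in HLO and 1201 ± 634 in HMO (limma p 0.562, interval -1.54 to 0.88). MOS, the kinase of metaphase arrest, ranged from 1.73 to 66.4 FPKM in HLO and 8.33 to 61.4 FPKM in HMO. The expressed copy of CCNB1 (ENSCHIG00000016273), cyclin B1, was at 149.9 ± 134 FPKM in HLO and 125 ± 64.8 in HMO, and its other 2 copies were at 0.206 FPKM or less. FIGLA, the zona gene activator, was at 6.81 ± 3.22 FPKM in HLO and 8.64 ± 2.23 in HMO, the receptor KIT at 4.72 ± 1.18 FPKM in HLO and 4.95 ± 0.657 in HMO, the gap junction protein GJA4 at 1.1001 ± 0.794 FPKM in HLO and 1.26 ± 0.270 in HMO and PLEKHA3 at 1.903 ± 0.681 FPKM in HLO and 1.63 ± 0.798 in HMO. For none of these genes was the limma p under 0.05, which does not show that the stages were alike.

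The 15 tested oocyte marker genes had a median log2 fold change of -0.28, with 10 negative values, against -0.03 for all genes tested, and -0.36 without HLO 1. Of the function lists, the medians were 0.10 for the zona pellucida and egg surface (6 tested), 0.16 for oocyte growth factors and their receptors (24), 0.02 for Notch genes (15), -0.18 for gap junction proteins (5) and -0.07 for oocyte transcription factors (12). Single members had an unadjusted limma p under 0.05. SMAD4, the shared mediator of the TGF-beta and BMP signals, was at 0.730 ± 0.130 FPKM in HLO and 0.311 ± 0.241 in HMO (p 0.0164), and NCSTN, a gamma-secretase subunit of the Notch pathway, at 3.598 ± 0.702 FPKM in HLO and 2.21 ± 0.944 in HMO (p 0.0429). The medians were -0.14 for the subcortical maternal complex and maternal effect genes (13 tested), 0.00 for mRNA storage (34) and 0.00 for mRNA decay (27), where the m6A reader YTHDF1 was at 0.812 ± 0.360 FPKM in HLO and 0.357 ± 0.187 in HMO (p 0.0351). They were 0.03 for cyclin B, CDK1, MOS and meiotic resumption (33 tested), 0.12 for cAMP control of meiotic arrest (18) and -0.02 for spindle, checkpoint and cohesin genes (45). Among these, 2 subunits of the anaphase-promoting complex were higher in HMO at an unadjusted p under 0.05 but under the fold limit, ANAPC10 (ENSCHIG00000023676, 1 of 3 genes) at 152 ± 36.8 FPKM in HLO and 278 ± 68.6 in HMO and CDC16 at 1.205 ± 1.17 FPKM in HLO and 3.09 ± 1.58 in HMO. The checkpoint gene MAD1L1 was at 0.658 ± 0.260 FPKM in HLO and 0.317 ± 0.138 in HMO, and met the inclusion limit through 4 HLO samples alone. Genes of the BCL2 family and caspases (11 tested, median -0.02) and of egg calcium stores and channels (19 tested, median -0.01) had no member with an unadjusted p under 0.05.

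**Figure D4:**
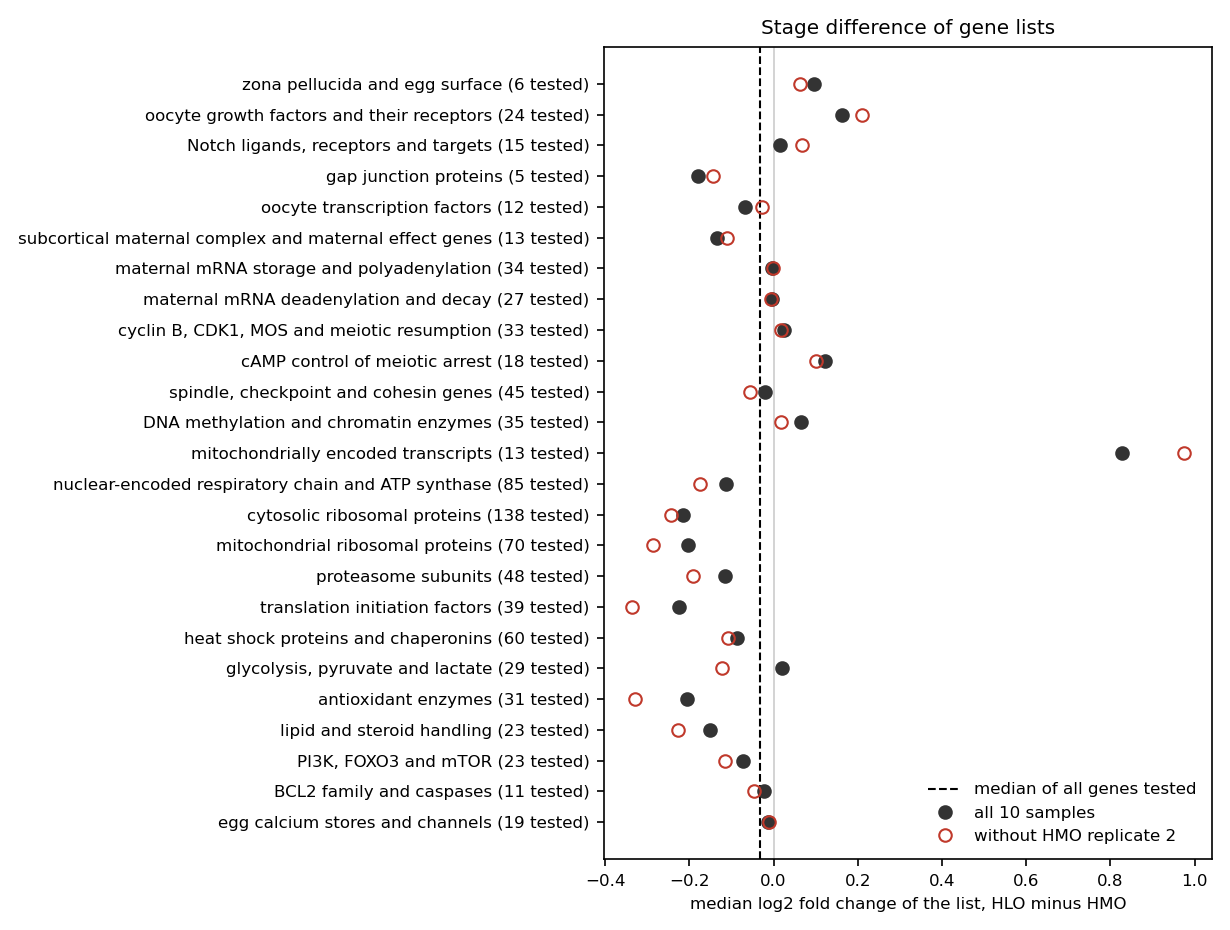
Median log2 fold change, HLO minus HMO (x axis), of 25 gene lists (marker lists left out) with the number of tested genes (y axis), with all 10 samples (filled) and without HMO replicate 2 (open), and the median of all genes tested as a dashed line. Apart from the mitochondrially encoded transcripts at 0.83, all medians with 10 samples lie between -0.23 and 0.16.

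The 13 mitochondrially encoded transcripts had a median log2 fold change of 0.83, and all 13 had a positive value, but 0 had an unadjusted limma p under 0.05. HLO replicate 1 carried much of the difference. ND1, a subunit of complex I, had 187, 23.6, 28.5, 14.4 and 8.31 FPKM in HLO 1 to 5 and 13.8, 19.7, 13.0, 8.25 and 5.08 FPKM in HMO 1 to 5. HLO 1 was far above the other 9 samples, whose ranges overlapped, and HLO was above HMO in each of the 5 replicate numbers. The transcripts took 0.132% ± 0.146 of summed FPKM in HLO and 0.0523% ± 0.0271 in HMO (SD, n = 5 each; exact permutation p 0.206), with 0.389% in HLO 1. The share was higher in HLO in 4 of the 5 replicate numbers (exact sign-flip permutation p 0.125, where 5 pairs cannot go below 0.0625). Without HLO 1 the list median was 0.18, 10 of the 13 values were positive, and the difference in share was 0.0156 percentage points instead of 0.0798 (exact permutation p 0.413). The libraries were made from RNA selected for poly(A) tails, so these shares are not those of total RNA.

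Outside the comparison, the genes higher in HMO were high together in a few other samples. Their median level on the log2(FPKM + 1) scale was 0.92 to 1.44 in HLO, 1.26 in HMO 2 and 3.34 to 4.02 in the other HMO samples, which the choice of genes fixed. In samples that did not enter the choice it was 4.39 in LLO replicate 4 and 3.79, 3.08 and 3.74 in LSO replicates 1, 3 and 4 (large and small follicles of the low fertility group), and 0.46 to 1.599 in the other 15 samples. In 174 of the 187 genes LLO 4 was above the other 4 LLO samples, and in 142 LSO 1, 3 and 4 were all above LSO 2 and 5, against 35.5% and 9.57% of all genes tested. LOC108635646 had 142 FPKM in LLO 4 and 116, 183 and 103 FPKM in LSO 1, 3 and 4, and DPP4 83.9, 67.4, 98.6 and 30.3 FPKM. DPP4 was also at 39.0 FPKM in LLO 5. High levels were therefore also seen in oocytes of large and small follicles of the low fertility group. The labels give no library batch, so a difference between HMO and HLO in these genes cannot be told apart from whatever the 8 high samples have in common, and whether a sample was exchanged could not be checked.

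**Figure D5:**
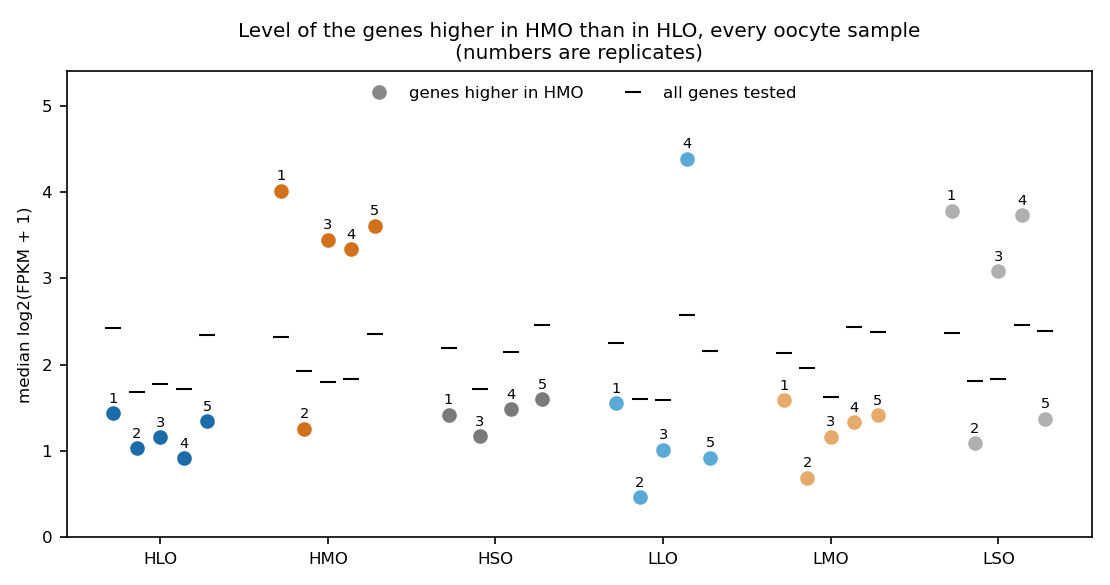
Median log2(FPKM + 1) (y axis) of the 187 genes higher in HMO than in HLO, in each of the 29 oocyte samples by group (x axis), points labelled with replicate numbers, and the median of all 8320 genes in the same sample as a dash. HMO 1, 3, 4 and 5, LLO 4 and LSO 1, 3 and 4 lie at 3.08 or above and the other 21 samples at 1.599 or below.

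The difference between the stages was also set beside that in the low fertility group (LLO and LMO, 5 samples each, other goats). No gene passed an adjusted p of 0.05 in limma's test of the difference of the stage effects over 9251 genes (smallest 0.246), while 881 had an unadjusted p under 0.05. With the replicate number as a block the count was also 0 (smallest adjusted p 0.112). With no block and without HMO replicate 2 it was 59. Of the 187 genes, 142 were tested in the low fertility group, where 1 was higher in LMO (0.704%, against 2.18% of the 8396 genes tested there) and 7 higher in LLO (4.93%, against 0.333%). On the log2(FPKM + 1) scale the median of the 187 genes was 4.39 in LLO 4 and 0.46 to 1.56 in the other LLO samples. Their mean in LLO therefore leaned largely on LLO 4. STAR had a log2 fold change of 0.88 in the high and -1.12 in the low fertility group (unadjusted p of the difference 0.000384, adjusted p 0.246, limma). For MAPKAPK3 the values were 0.75 and -0.84 (adjusted p 0.246), and for NCSTN 0.55 and -1.16 (adjusted p 0.246). Among genes higher in HMO, CALML4 had -1.29 in the high and 1.87 in the low fertility group and DPP4 -2.50 and 1.58 (adjusted p 0.246 for both, limma). For DPP4 the LLO level came mainly from LLO 4 (83.9 FPKM) and LLO 5 (39.0), with 4.82 to 8.86 FPKM in LLO 1, 2 and 3. None of the 5 genes passed the adjusted threshold. They were named for their difference between HLO and HMO, which is part of this test, so its p-values only describe them. All 5 changed sign between the groups. Other named genes kept it, such as NEFL (1.17 in the high and 0.71 in the low fertility group), CBR4 (0.62 and 0.37) and BEX2 (0.93 and 0.30).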

How the data were processed

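Oocyte mRNA was enriched with oligo(dT) and sequenced on an Illumina instrument. The authors removed duplicate reads with picard and computed FPKM per gene with Cufflinks from uniquely matching reads and Ensembl annotation, and deposited 1 table of FPKM values. The aligner version and the genome build are not given in the sources used here. Of the table's sample columns 29 were matched to samples by name, and 1 further column matched no sample and was not used. Read depth cannot be read from FPKM, and the study's mapping numbers were not used here. Since only uniquely matching reads were used, the values of near-identical gene copies rest on the reads that could be placed on 1 copy.

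A gene was tested if 4 or more of the 10 HLO and HMO samples exceeded 0.5 FPKM, on log2(FPKM + 1), a scale that understates changes of low genes, with limma 3.58.1 (moderated test with trend, R 4.3.3) and Benjamini-Hochberg adjustment. Fold changes are HLO minus HMO. Genes were called higher if the unadjusted p was under 0.05 and the log2 difference beyond 1, and counted as without overlap where all samples of a stage lay above all of the other. Single values per sample were tested by two-sided exact permutation (scipy 1.17.1), and an interaction term in limma compared the stage effect between fertility groups. The scripts were tested on simulated data. Named genes were, per direction, up to 10 with the largest fold among those without overlap and up to 10 with the smallest p among those called (symbols carried by 1 gene and not starting with LOC), up to 2 of each list with the smallest p under 0.05, up to 5 with the largest fold past the adjusted p with the block, and 15 fixed genes such as GDF9. A gene that this rule names is not reported here. The members and gene lists were chosen with earlier results of these data known. Alternatives were the pseudocount, filter, normalization, array weights, an exact Wilcoxon test, leaving out each sample, a replicate block, and, added after seeing the data, genes with a symbol of their own and the block without each sample.

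Whether replicate numbers pair the samples was checked from the data, since the labels do not say what a number shares. Deviations of HLO and HMO samples with the same number correlated at 0.295 to 0.708 in all 5 numbers, so the block was used as an alternative, and numbers 1 and 5 also correlated with each other at 0.484 or more. Only 3 of 5 HLO and 3 of 5 HMO samples matched their own number best.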

Additional observations from a re-analysis of the deposited data

Results flagged for a closer look

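Among 154 groups of 5 samples examined, 21 held a sample whose gap to its nearest neighbour was beyond Dixon's 95% critical value. Chance flags about 1 in 20 groups that are independent and not selected. Many of the genes examined were named for their difference in these same samples and vary together, so the 21 are a description and not a test. Of the 21, 10 were HMO replicate 2. That sample was far below the other HMO samples for OCM2 (2.63 FPKM), LCMT2 (0.804), HSD17B2 (0.0443), CCL19 (listed at 0), ATP5G2 (0.482), RPS23 (5.52), MRPL18 (5.11), MRPS33 (1.86) and 2 copies of RPS6 (3.62 in ENSCHIG00000008209 and 0.777 in ENSCHIG00000019971), all in FPKM.

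The other samples far from their group were spread over 6 samples. HLO 5 stood apart for BEX2 (1.63 FPKM), DGAT2 (0.599) and HSD17B2 (0.113), HLO 4 for RPS10 (2.14) and BLOC1S2 (2.17), and HLO 3 for HSPB3 (0.591) and OR5J2 (1.53). HLO 1 stood apart for CDC16 (3.27 FPKM) and for the share of mitochondrially encoded transcripts (0.389%), HMO 3 for OCEL1 (0.452 FPKM) and HMO 4 for ZP2 (122 FPKM). No result was singled out for differing between the fertility groups.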

How the results depend on the processing

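For the 82 named genes tested, 1419 of 1563 values under the alternatives kept their direction and their side of the adjusted threshold, 124 passed it that had not before, 39 of these without HMO replicate 2 and 39 with the replicate block, and 20 changed sign. Genes past the adjusted p (0 with all 10 samples and no block) numbered 137 with the replicate block, 239 with array weights, 2 in 1 fit over 29 samples and 0 to 177 when a sample was left out, the highest without HMO 2. With the block kept, they numbered 401 without HLO 2 or HMO 2, 1 without HLO 5 or HMO 5, and 0 without any of the other 6 samples. Either sample of a number left out takes that pair out of the block comparison.

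Genes higher in HLO (19) became 67 and 34 with pseudocounts of 0.1 and 0.5, 42 with array weights, 7 by the exact Wilcoxon test and 16 to 36 without a sample. With the block, leaving out replicate 1, 2, 4 or 5 gave 33, 53, 37 and 33 (HLO) and 33, 53, 36 and 34 (HMO). Genes higher in HMO (187) became 311 with a pseudocount of 0.1, 297 with array weights, 124 among genes with a symbol of their own, 94 by the Wilcoxon test, and 118 (without HMO 1) to 304 (without HMO 2). With the block they became 331 and 332 without HLO 2 and HMO 2. Genes without overlap became 47 (HLO) and 108 (HMO) with no filter, and 34 to 158 (HLO) and 54 to 365 (HMO) without a sample, the highest without HMO 2.

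The test between fertility groups, with no block, gave 0 to 59 genes when a sample was left out, 59 without HMO 2 and 2 without LLO 3. The difference in the first component (-11.8) ran from -30.9 to 4.03, with 2.85 and 2.27 as further positive values, that in expressed genes from -324 to -6.40, and that in mitochondrial share from 0.0156 to 0.103. With the replicate block, a sign-flip test over 5 pairs cannot go below 0.0625.

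The log2 fold changes that changed sign were those of ZP3, ZP4, CCNB1, KIT, BTG4 (-0.33 with all samples) and MOS (-0.59), none with an unadjusted p under 0.05. ZP3 gave -0.27 with array weights and -0.24 to 0.42 without a sample, ZP4 -0.36 and -0.29 to 0.33. CCNB1 (ENSCHIG00000016273) gave 0.011 with median-of-ratios factors, 0.24 with quantile normalization and -0.47 to 0.22 without a sample. Without a sample KIT gave -0.15 to 0.012, BTG4 -0.64 to 0.065 and MOS -1.10 to 0.0554. The cause of these changes was not tested. Read depth, not used here, limits what can be said of genes near 0.5 FPKM.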
